A study of Mus musculus with 6 samples.

Results

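Cxcl12, Cx3cl1, Ccl17, Ccl27a and Ccl25 are grouped here as homeostatic or tissue chemokines, made by stromal, endothelial, epithelial and dendritic cells. They were examined in mouse embryonic fibroblasts (MEFs) with and without cyclophilin D (CypD), a mitochondrial enzyme that turns prolyl bonds and is the product of the gene Ppif. The 5 genes were taken by symbol from the probe annotation, out of 7606 genes with a named probe, and 8 probes measured them. They were picked because they are chemokines of this class and because the difference between CypD knockout and wild type was already known, so their differences between groups are given as descriptions without p-values. There were 3 arrays of CypD knockout MEFs and 3 arrays of wild type MEFs, with replicates lettered A, B and C in each group. Per the labels, all cultures were set up from E13.5 embryos on a C57BL/6 background, were grown in serum with no other treatment named, and gave total RNA from whole cultures. The labels name neither the deletion's construction nor whether a letter marks its own embryo, litter or culture, so each p-value reflects array-to-array spread alone, and that spread may be technical. MEF cultures hold a mixture of embryonic cells, and in such bulk samples fewer cells of a type and less RNA per cell cannot be told apart.

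Chemokines are small secreted proteins that guide cells by binding heparan sulfate on surfaces and G protein-coupled receptors on the responding cell. Homeostatic chemokines hold leukocytes and progenitors in their tissues, whereas inflammatory chemokines such as Ccl2 are induced by injury or infection. Stromal fibroblasts are a main source of Cxcl12, which keeps haematopoietic stem cells in bone marrow and directs migration in the embryo through Cxcr4, with Ackr3 as a scavenging receptor.

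Each Illumina bead array carried 45281 probes. The deposited scanner intensities had array medians of 226 to 229 in CypD knockout and 223 to 251 in wild type, and the lowest value on an array was between 118 and 139. After background correction and quantile normalization on the log2 scale, 27168 probes were tested with limma, and 5423 of them (20.0%) passed a Benjamini-Hochberg adjusted p of 0.05. Of these, 2656 were higher (9.78%) and 2767 were lower (10.2%) in CypD knockout. Genes were named only for probes in the deposited processed table, whose probes all varied at least 1.20-fold across the arrays. Among named genes, each represented by its brightest probe, 43.6% passed. The probe for Ppif had normalized log2 intensities of 12.25, 12.35 and 12.18 in CypD knockout, against 13.57, 13.70 and 13.62 in wild type. Ppif signal was 2.59-fold lower in CypD knockout (limma adjusted p = 2.96e-09). The place of this probe relative to the deletion is unknown here.

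Cxcl12 had the widest difference between groups of the 5 chemokines, with all 3 of its probes higher in CypD knockout. The brightest probe, ILMN_2658908, had scanner intensities of 49565, 49289 and 46961 in CypD knockout, against 13736, 12853 and 11704 in wild type. Its normalized log2 intensities were 15.60, 15.65 and 15.58 in CypD knockout and 13.60, 13.61 and 13.49 in wild type. The knockout arrays all lay above the wild type arrays, and the gap between the lowest knockout and the highest wild type value was 1.97 log2 units. The means were 15.61 ± 0.037 in CypD knockout and 13.57 ± 0.067 in wild type (SD, n = 3 each), a log2 fold change of 2.05 ± 0.05 (SE), or 4.13-fold. In the deposited processed table the same probe averaged 50085 ± 1203 in CypD knockout and 12101 ± 547 in wild type (SD, n = 3 each), a ratio of 4.14.

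The brightest probe of any kind on an array read between 68506 and 70884. The brightest Cxcl12 probe reached 71.0%, 71.9% and 67.4% of its array's maximum in CypD knockout A, B and C. In wild type it reached 19.4%, 18.3% and 16.7% in A, B and C. The knockout signal thus lay in the upper part of the scale, and the part of the scale's end in the fold change was not tested.

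Cxcl12 RNA is spliced into isoforms that differ at the carboxyl end of the protein, and the probe annotation links each of the 3 probes to another RefSeq transcript. The probe linked to NM_021704, ILMN_2737302, had normalized log2 intensities of 10.65, 10.64 and 10.70 in CypD knockout, against 8.82, 9.07 and 8.75 in wild type. The probe linked to NM_001012477, ILMN_3158250, had 9.95, 9.75 and 9.66 in CypD knockout, against 7.89, 8.32 and 7.93 in wild type. Neither probe's groups overlapped. The log2 fold changes were 1.79 ± 0.10 and 1.74 ± 0.12 (SE), or 3.45-fold and 3.34-fold higher in CypD knockout. The log2 fold change of the probe linked to NM_013655, the brightest one, was larger than that of the second by 0.26 and than that of the third by 0.31, and those of the second and the third probe differed by 0.05. These differences between probes were not tested and are no measure of isoform proportions. The 2 dimmer probes also moved more with the processing, with log2 fold changes of 1.59 to 1.86 and of 1.44 to 1.88 under the other processing settings, against 1.97 to 2.05 for the brightest probe.

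Cx3cl1 encodes fractalkine, a chemokine made as a membrane-anchored protein on a mucin stalk that is released by the sheddases Adam10 and Adam17 and read by Cx3cr1. It had 1 named probe, with scanner intensities of 4006, 4130 and 4084 in CypD knockout, against 1699, 1958 and 1559 in wild type. The normalized log2 intensities were 11.97, 12.05 and 11.99 in CypD knockout and 10.52, 10.86 and 10.55 in wild type. Every knockout array was above every wild type array, and wild type B was the highest of its group. The means were 12.00 ± 0.045 in CypD knockout and 10.64 ± 0.19 in wild type (SD, n = 3 each), a log2 fold change of 1.36 ± 0.09 (SE), or 2.57-fold. Wild type B was also the highest wild type array for all 3 Cxcl12 probes, by 0.009, 0.25 and 0.39 log2 units over the next, and for Cx3cl1 by 0.31. Without wild type B the log2 fold changes of the 3 Cxcl12 probes were 2.07, 1.89 and 1.88, and that of Cx3cl1 was 1.47.

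**Figure D1:**
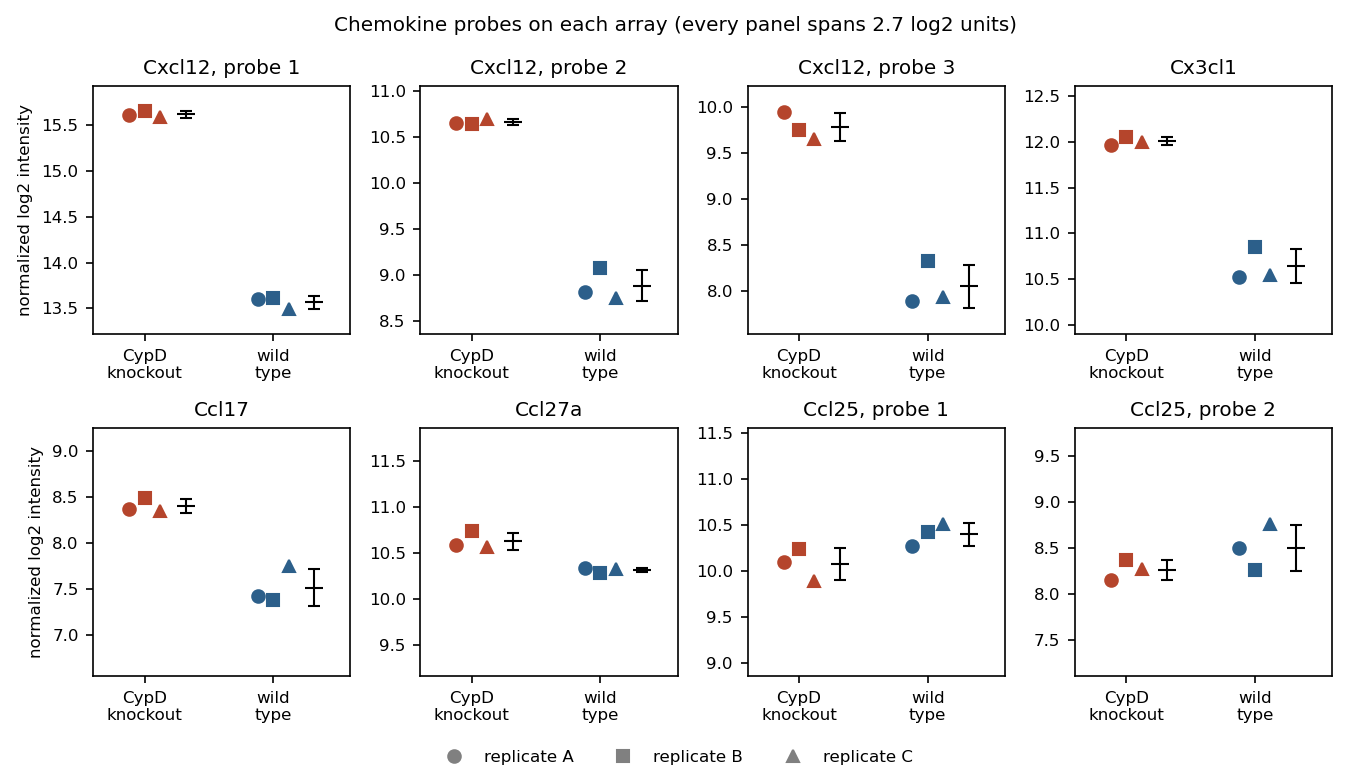
Normalized log2 intensity (y axis) of each of the 8 chemokine probes on every array, with CypD knockout left of wild type; symbols mark replicates A, B and C, and the bars are the mean ± SD of 3 arrays. Each panel spans the same number of log2 units, and the groups are apart in every panel except the second Ccl25 probe. The genes were chosen on this contrast, so nothing is read from this separation, whose share among all probes is not given here.

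The 2 genes with the widest differences are shown with the 250 bases before their RefSeq start sites (assembly GRCm38.p6, plus strand). Capitals mark the GC box GGGCGG, read on either strand, and TATAAA, read on the gene's strand. The Cxcl12 stretch is at chr6:117168285-117168534 and the Cx3cl1 stretch is at chr8:94771930-94772179.
Cxcl12: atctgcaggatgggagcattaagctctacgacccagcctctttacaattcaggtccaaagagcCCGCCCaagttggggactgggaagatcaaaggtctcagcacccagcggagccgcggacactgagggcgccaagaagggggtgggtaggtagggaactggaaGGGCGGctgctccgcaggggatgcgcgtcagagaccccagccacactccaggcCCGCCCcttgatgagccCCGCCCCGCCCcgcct
Cx3cl1: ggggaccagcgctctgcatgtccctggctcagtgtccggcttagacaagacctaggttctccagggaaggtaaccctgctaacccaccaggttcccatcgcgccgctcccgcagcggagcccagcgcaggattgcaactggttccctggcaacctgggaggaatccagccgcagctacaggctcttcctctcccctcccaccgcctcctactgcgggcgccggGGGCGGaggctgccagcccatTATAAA
The GC content was 64.4% for Cxcl12 and 64.8% for Cx3cl1, both above the upper quartile of all RefSeq mouse promoters of this length (median 52.4%, quartiles 45.2% and 61.2%). High GC content did not set these 2 genes apart, since 1 of the 2 start sites of Ccl25 had 74.8% and the other 51.6%, while those of Ccl17 and Ccl27a had 46.8% to 53.2%. The Cxcl12 stretch held 5 GC boxes, the last pair of which share a base, and no TATAAA. The Cx3cl1 stretch held 1 GC box and ended in TATAAA. A GC box was present in 32.7% and TATAAA in 7.59% of all promoters. The letters ACGTG, the core of a hypoxia response element, occurred in no promoter of the 5 genes and in 16.6% of all promoters. The AP-1 letters TGANTCA occurred at 1 of the 3 start sites of Ccl27a and in 6.75% of all promoters, a STAT-type motif in Ccl17 (7.02% of all), and an NF-kB-type motif in none of the 5 genes (1.41% of all). Another start site of Ccl27a held 2 GC boxes, and 1 of the 2 start sites of Ccl25 held TATAAA. All but TATAAA were read on either strand, and these matches only describe the letters in the window.

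Ccl17, known from dendritic cells and as an attractant of T cells that carry Ccr4, was dim in these cultures. Its probe had scanner intensities of 423, 438 and 419 in CypD knockout, against 287, 267 and 296 in wild type, which is 1.83 to 1.93 times the array median in CypD knockout and 1.12 to 1.32 times in wild type. The normalized log2 intensities were 8.37, 8.49 and 8.35 in CypD knockout and 7.42, 7.37 and 7.75 in wild type, with no overlap. The means were 8.40 ± 0.079 in CypD knockout and 7.51 ± 0.20 in wild type (SD, n = 3 each), a log2 fold change of 0.89 ± 0.12 (SE), or 1.85-fold. This size depended on the background step, since it was 0.64 without background correction and 1.03 with a smaller offset of 16. The array files hold no detection p-value, so whether Ccl17 RNA was above background in wild type was not analysed here.

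Ccl27a is best known as a skin chemokine of keratinocytes that attracts T cells through Ccr10. Its probe had normalized log2 intensities of 10.58, 10.74 and 10.57 in CypD knockout, against 10.34, 10.29 and 10.32 in wild type. The knockout values lay above the wild type values by a gap of 0.23. The means were 10.63 ± 0.093 in CypD knockout and 10.31 ± 0.026 in wild type (SD, n = 3 each), a log2 fold change of 0.31 ± 0.08 (SE), or 1.24-fold. Without CypD knockout B it was 0.26 and no longer passed the threshold. RefSeq lists a copy, Ccl27b, on the same chromosome 4. The probe sequence was not available here, so whether Ccl27b RNA adds to the signal of this probe was not tested.

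Ccl25, the thymic and small intestinal ligand of Ccr9, was the only one of the 5 genes with lower signal in CypD knockout. Its brighter probe, ILMN_2942353, had normalized log2 intensities of 10.09, 10.24 and 9.89 in CypD knockout, against 10.27, 10.42 and 10.51 in wild type. The groups were apart by 0.03 log2 units, with knockout B close to wild type A. The means were 10.08 ± 0.18 in CypD knockout and 10.40 ± 0.12 in wild type (SD, n = 3 each), a log2 fold change of -0.33 ± 0.10 (SE). The dimmer probe, ILMN_2661722, had 8.15, 8.37 and 8.27 in CypD knockout, against 8.50, 8.26 and 8.76 in wild type, so that its groups overlapped (log2 fold change -0.24 ± 0.12, SE). The brighter probe fell short of the threshold without CypD knockout A (-0.34), CypD knockout C (-0.23), wild type B (-0.31) or wild type C (-0.27), and when the intensity trend was left out of the fit.

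All 8 probes of the 5 genes passed the filter on low signal, and 7 of them passed the threshold, 6 higher and 1 lower in CypD knockout. The same threshold was passed by 42.1% of named probes, and because the genes were chosen on this contrast nothing is read from their count. By brightest probe the median log2 fold change of the 5 genes was 0.89, against 0.0082 for all named genes. The same choice applies to that median, so nothing is read from the gap either. The members nearest to the listing limit of 1.20-fold variation were Ccl27a and Ccl25. Processed values varied 1.33-fold for Ccl27a, and 1.48-fold and 1.40-fold for the 2 Ccl25 probes, whereas the brightest Cxcl12 probe varied 4.48-fold. The SD over arrays was larger in wild type than in CypD knockout for 6 of the 8 probes, against 56.1% of all tested probes.

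**Figure D2:**
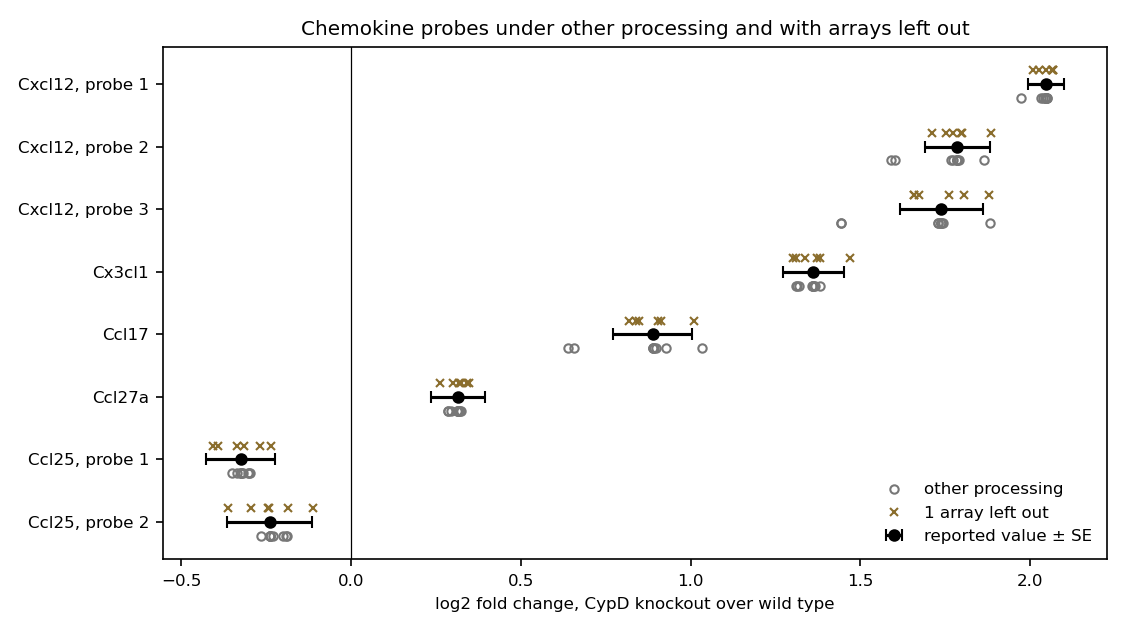
Log2 fold change of CypD knockout over wild type (x axis) for each chemokine probe; black points with bars are the reported values ± SE, open circles are other processing settings and crosses are fits without 1 array. The Cxcl12 and Cx3cl1 values stay above 1, Ccl17 spans 0.64 to 1.03, and the 2 Ccl25 probes stay below 0.

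The receptors of these chemokines could not be compared. Cxcr4, Ackr3, Cx3cr1, Ccr4, Ccr10 and Ccr9 have no named probe, and neither have the others of the 24 chemokine receptors and scavengers looked up, so they are not analysed here. Among 17 further homeostatic or tissue chemokines only Cklf, a chemokine-like factor, was named, with 3 probes. Its brightest probe had a log2 fold change of 0.22 ± 0.09 that did not pass (limma adjusted p = 0.12). Another Cklf probe did not pass either (0.25), and the third passed (0.29). Of 20 inflammatory chemokines, 8 had a named probe and all 8 fell in CypD knockout, beside 21.8% of all named genes lower. Their median log2 fold change was -2.28. Naming needed at least 1.20-fold variation and a highest value of at least 273. Chemokines that were flat or dim on all arrays could therefore not be counted. The log2 fold changes of the monocyte attractants were -3.30 ± 0.08 for Ccl7 and -3.24 ± 0.09 for Ccl2 (SE; limma adjusted p = 5.18e-12 and 1.48e-11), and those of Ccl9 and Ccl5 were -2.44 ± 0.10 and -2.12 ± 0.09. The other 4, Ppbp, Cxcl1, Cxcl10 and Cxcl16, lay between -2.70 and -0.73.

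Chemokines are cut or released by proteases, and of 25 genes for such proteases, their inhibitors and their cofactors 18 were measured. In CypD knockout 5 rose, 9 fell and 4 did not pass, with a median log2 fold change of -0.23, beside 21.8% higher and 21.8% lower among all named genes. Mmp2, a gelatinase that clips the amino end of Cxcl12, averaged 13.55 ± 0.052 in CypD knockout and 11.29 ± 0.054 in wild type (SD, n = 3 each; log2 fold change 2.26 ± 0.06, limma adjusted p = 1.48e-11). Among the inhibitors Timp2 and Reck rose, and Timp1 and Timp3 fell. Timp3, an inhibitor of Adam17 and of matrix metalloproteinases, had a log2 fold change of -1.83 ± 0.06 (limma adjusted p = 7.76e-11). The stromelysin Mmp3 and the collagenase Mmp13 fell as well (-2.40 ± 0.13 and -1.65 ± 0.11). Mmp3 and Mmp13 were dim in CypD knockout (means of 6.57 and 6.85 log2 units). Under the other processing settings their log2 fold changes ranged from -2.94 to -1.66 and from -2.01 to -1.12. The sheddases of Cx3cl1 did not pass: Adam17 had a log2 fold change of 0.14 ± 0.12 (limma adjusted p = 0.533) and Adam10 one of 0.15 ± 0.15 (limma adjusted p = 0.603). Rhbdf1, a cofactor that brings Adam17 to the cell surface, did not pass either (-0.15 ± 0.07, limma adjusted p = 0.159).

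Heparan sulfate, which holds Cxcl12 at the cell surface through its sulfate groups, was represented by 23 of 32 enzymes and core proteins. In CypD knockout 4 rose, 11 fell and 8 did not pass (median -0.21), beside 21.8% higher and 21.8% lower among named genes. Hs6st2, which adds sulfate at the 6-O position, rose by a log2 fold change of 1.73 ± 0.08 (limma adjusted p = 1.78e-09). Sulf1, which removes 6-O sulfate outside the cell, fell (-1.91 ± 0.08, limma adjusted p = 1.26e-09). The 3-O-sulfotransferase gene Hs3st3a1 fell (-2.37 ± 0.09), and Gpc2, the core protein of a glypican, rose (1.29 ± 0.09). The syndecan Sdc4 (-0.28 ± 0.09, limma adjusted p = 0.0527) and the glycosyltransferase Extl2 (0.18 ± 0.06, limma adjusted p = 0.0534) lay just outside the threshold, and each passed it under some other settings.

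Of 40 genes of signalling around Cxcr4 and similar receptors, which include the other ligands Mif and Hmgb1 and the Mif receptor Cd74, 20 were measured. Of these 5 rose, 6 fell, Cd74 among them, and 9 did not pass (median -0.16), beside 43.6% passing among named genes. Rgs4, which switches G alpha proteins off, rose (1.87 ± 0.12, limma adjusted p = 4.14e-08). The G gamma subunit Gng12 (-0.82 ± 0.06), the tyrosine kinase Ptk2b (-1.25 ± 0.13) and the receptor kinase Grk5 (-0.60 ± 0.09) fell. The G alpha genes Gnai2 (-0.07 ± 0.07) and Gnaq (-0.10 ± 0.07) did not pass. Without CypD knockout C only 7 genes of this list passed.

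In bone marrow, Cxcl12 is made by perivascular stromal cells that also express a known set of growth factor, receptor and transcription factor genes, of which 21 of 29 were measured here. In CypD knockout 10 rose, 7 fell and 4 did not pass, with a median log2 fold change of 0.063, and the share that passed is read beside 43.6% of all named genes. Lpl, lipoprotein lipase, rose (2.09 ± 0.12, limma adjusted p = 2.06e-08), as did the receptor Pdgfra (1.47 ± 0.11) and the transcription factor Ebf3 (0.97 ± 0.07). Lpl was dim in wild type (mean of 6.96 log2 units), and its log2 fold change ranged from 1.51 to 2.46 under the other processing settings. Foxc1, a transcription factor of Cxcl12-abundant reticular cells, had 1.11 ± 0.08, and Ebf2 and Igf1 had 1.08 ± 0.10 and 1.03 ± 0.10. Vcam1 (0.72 ± 0.07), Prrx1, Pdgfrb and Pparg were the other genes that rose, and Pparg fell short when any of 4 arrays was left out. Il7, the lymphoid growth factor of the same cells, fell (-1.61 ± 0.10, limma adjusted p = 3.03e-08), together with Nes, Grem1, Cspg4, Gas6, Bmp4 and Ebf1. The call of Gas6 was lost without wild type A (-0.36) or CypD knockout C (-0.47), and that of Ebf1 under 4 other settings and without any of 4 arrays (-0.34 to -0.28). Csf1 (-0.18 ± 0.07) and Mcam (0.06 ± 0.12) did not pass, although Csf1 did without wild type C and under median scaling (-0.23 in each). Genes of this list beyond Lpl, Il7, Ebf3, Pdgfra, Csf1 and Mcam were named after their values were seen.

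Regulators reported for Cxcl12 transcription were measured for 15 of 25 genes, of which 3 rose, 7 fell and 5 did not pass (median -0.14), beside 43.6% passing among named genes. Hey1, a target gene of Notch signalling, fell (-2.81 ± 0.09, limma adjusted p = 4.54e-11), and so did Notch1 itself (-0.67 ± 0.09). Relb, a subunit of the alternative NF-kB pathway that drives Cxcl12 in lymphoid stroma, fell (-0.79 ± 0.09), and Gata6 rose (0.80 ± 0.08). Egr1 (0.14 ± 0.06, limma adjusted p = 0.154) and Arnt (0.12 ± 0.10, limma adjusted p = 0.459) did not pass. Egr1 passed without wild type C, at 0.21.

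**Figure D3:**
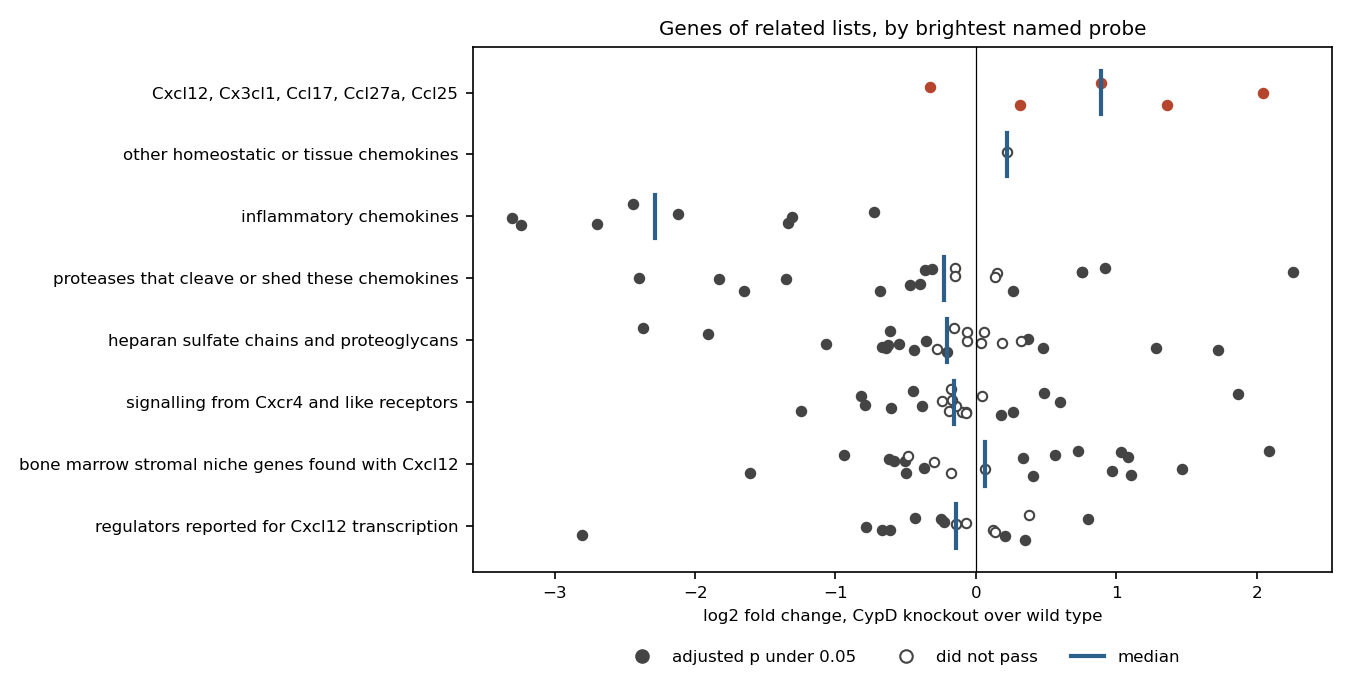
Log2 fold change of CypD knockout over wild type (x axis) for each measured gene of the lists, by its brightest probe; filled points had an adjusted p under 0.05 and bars are medians. The top line shows the 5 chemokines, which were chosen on this contrast, so nothing is read from their filled points or their median of 0.89. The median of the 8 inflammatory chemokines was -2.28.

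To see which genes varied most like each chemokine, profiles over the 6 arrays were centred and set against each other by their root mean square distance. The 5 genes nearest to the brightest Cxcl12 probe were Serpinf1, at a distance of 0.067 log2 units, Mtcl1 at 0.080, Lrfn3 at 0.090, Car13 at 0.092 and Ank3 at 0.097. Serpinf1 encodes a secreted serpin that restrains blood vessel growth, and its log2 fold change was 2.05, the same to 2 decimals as that of Cxcl12. The others had log2 fold changes between 1.92 and 2.19. Nearest to Cx3cl1 were Man2a2, a Golgi mannosidase gene, at 0.079 and Vcan, the matrix proteoglycan versican, at 0.083. Nearest to Ccl17 were Dusp23 at 0.044 and Arrdc4 at 0.060. Triap1 (0.016) and Ppil3 (0.017) were nearest to Ccl27a, and Aftph (0.030) and Ogfod2 (0.031) to the brighter Ccl25 probe. With 2 groups of 3 arrays this likeness rests mainly on the difference between groups.

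**Figure D4:**
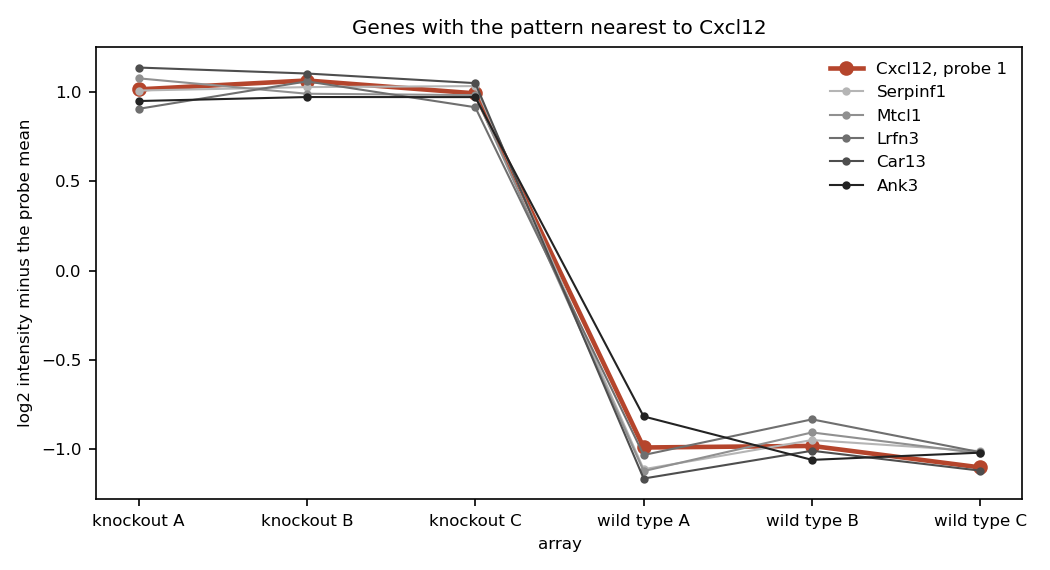
Normalized log2 intensity minus each probe's own mean (y axis) on the 6 arrays (x axis, CypD knockout left) for the brightest Cxcl12 probe and the 5 named genes nearest to it. All 6 profiles lie near 1 on the knockout arrays and near -1 on the wild type arrays.

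Cx3cl1 and Ccl17 are direct neighbours on chromosome 8, Cxcl12 lies on chromosome 6, Ccl27a on chromosome 4 and Ccl25 elsewhere on chromosome 8. Among the 5 genes to either side of each, 40 genes in all, 14 had a named probe, of which 3 rose, 3 fell and 8 did not pass, beside 43.6% passing among named genes. The gene near Cxcl12 that passed was Zfp637 (0.59 ± 0.07, limma adjusted p = 2.35e-05). Zfp239 and Hnrnpf, also near it, did not pass. Around Cx3cl1 and Ccl17, Dok4 fell (-0.84 ± 0.08, limma adjusted p = 3.38e-06), while Rspry1 (0.30), Ciapin1 (-0.24) and Coq9 (-0.27) passed with adjusted p of 0.0483, 0.0338 and 0.0368 in limma and each fell short when any of at least 4 arrays was left out. Arl2bp and Ccdc102a did not pass. Near Ccl25, Efnb2, which encodes ephrin-B2, rose (0.84 ± 0.07, limma adjusted p = 1.52e-06), and Ctxn1, Elavl1 and Shcbp1 did not pass. Dctn3, near Ccl27a, did not pass.

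Markers of cell types that a culture of this kind can hold were looked at beside the chemokines. Of 16 fibroblast markers 12 were measured, of which 4 rose and 4 fell in CypD knockout, beside 43.6% passing among named genes, which is also the background for the other marker lists. S100a4, a calcium-binding protein gene of fibroblasts, fell (-1.62 ± 0.10, limma adjusted p = 5.16e-08). Col1a1, which encodes a main collagen chain, averaged 13.36 ± 0.036 in CypD knockout and 13.99 ± 0.058 in wild type, and Col3a1 averaged 10.95 ± 0.021 in CypD knockout and 9.82 ± 0.13 in wild type (SD, n = 3 each). Leukocyte and dendritic cell markers were measured for 3 of 18 genes, with a summed intensity of 973 to 1009 in CypD knockout and 1038 to 1268 in wild type. Of these Cd74 fell (-0.79 ± 0.14, limma adjusted p = 0.000721), and Cd14 (-0.25 ± 0.09) and Coro1a (0.30 ± 0.13) did not pass. Coro1a thus lay in the other direction, and it passed as higher with array weights (0.36) and without wild type C (0.45). Cd14 passed as lower without wild type B (-0.31). Cd74 was dim in both groups (means of 6.72 in CypD knockout and 7.51 in wild type). The summed intensities of this and the following lists include background signal and the added offset, and are no measure of cell numbers. For endothelial markers (5 of 13) the sums were 4227 to 4374 in CypD knockout and 3908 to 4148 in wild type, with Flt1 (0.44 ± 0.07) and Eng (0.52 ± 0.12) as the 2 that rose. Egfl7, an endothelial secreted factor, fell (-0.26 ± 0.08, limma adjusted p = 0.042), a call lost without the filter, without the intensity trend, or without any of 4 arrays. For epithelial and keratinocyte markers (4 of 13) they were 2007 to 2131 in CypD knockout and 1618 to 1633 in wild type, although the median log2 fold change of the list was -0.22. Of these Spint1 rose (0.78 ± 0.08), Krt19 fell (-0.35 ± 0.10) and the other 2 did not pass. Another, dimmer probe of Spint1 did not pass (0.23). Krt19 fell short of the threshold without wild type A (limma adjusted p = 0.0581), CypD knockout A (0.0788) or CypD knockout C (0.0775). Neuron markers (4 of 13) summed to 996 to 1060 in CypD knockout and 3779 to 3946 in wild type, a difference that lay mostly in Stmn2, which averaged 8.87 ± 0.082 in CypD knockout and 11.66 ± 0.014 in wild type (log2 units, SD, n = 3 each; limma adjusted p = 1.46e-11). The other 3 neuron markers did not pass and had log2 fold changes of -0.26 to 0.10. Defining markers such as Ptprc for leukocytes, Pecam1 and Cdh5 for endothelium, Epcam and Krt14 for epithelium and Tubb3 for neurons had no named probe and are not analysed here. The part of these cell types in the chemokine values was not tested.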

How the data were processed

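The authors deposited 1 table of linear scanner intensities per array and 1 table of processed linear intensities for the series. Per the submitters' processing notes the software was BeadStudio 3.0, and its settings are unknown here. The files carry neither detection p-values nor control probes, slides or dates. Processed values were 0.983 to 0.998 times the quantile-normalized scanner values (1st to 99th percentile). The processed table lists 12534 probes with at least 1.20-fold variation and a highest value of at least 273, of which 10653 have 1 gene symbol, and these were named, with symbols updated by Entrez identifier in RefSeq (GRCm38.p6). Names therefore cover a set selected for variation.

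Scanner intensities were background-corrected (normexp, offset 50), log2-transformed and then quantile-normalized with limma 3.58.1 (R 4.3.3). The log2 step was made here from the deposited intensities. Because an offset is added, fold changes of dim probes are understated. Probes above the 40th percentile of mean log2 intensity were kept (27168), and groups were compared with lmFit and eBayes with an intensity trend, two-sided, Benjamini-Hochberg adjusted over all kept probes. A call is an adjusted p under 0.05. A gene in a list is represented by its brightest tested probe. The number of arrays, 3 per group, limits the precision. The fit was tested on simulated data.

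The genes, lists and tests were chosen with earlier results of these data known. Named genes are all probes of the 5 chemokines, Ppif, up to 4 called genes of lowest p and up to 2 brightest uncalled genes of each list, the genes nearest in pattern, and neighbouring genes with a named probe. Adam10, Timp1, Timp2, Reck, Mif, Hmgb1, the other inflammatory chemokines and the further niche genes stand outside that rule. Promoter sequences are RefSeq's. The replicate letters were checked for pairing: deviations from the group means of same-lettered arrays correlated at 0.101 (A), -0.0899 (B) and 0.0753 (C), so the letters were not treated as pairs. Alternatives covered the background correction and offset, the normalization, the filter, the trend, array weights, the replicate block, the processed table, the most variable probe of a gene in the lists, and each left-out array.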

Additional observations from a re-analysis of the deposited data

How the results depend on the processing

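Passing probes numbered 4616 to 5830 under the other settings and 4079 to 5903 with 1 array left out, and 6 or 7 of the 8 chemokine probes passed throughout. Those genes were chosen on this contrast, so nothing is read from their count, and 42.1% of named probes passed under the reported settings. With the replicate letter as a block 5273 probes passed, and Rspry1 fell short (limma adjusted p = 0.0736) while Sdc4 passed (limma adjusted p = 0.0134). The block changed no other call among the genes named. The chemokines kept their direction in every setting in which they were tested, though Ccl17 was not kept by the 70th percentile filter. Counts that moved by over 1.5 times were those of the leukocyte list (0 with the 70th percentile filter, 2 with array weights, 1 to 2 with 1 array left out), the epithelial list (1 to 3 with 1 array left out), the signalling list (7 to 11 with 1 array left out) and the neighbouring genes (3 without the intensity trend, 3 to 5 with 1 array left out). Of the 13 genes nearest in pattern, 7 remained under median scaling and 5 without background correction. Log2 fold changes near 0 changed sign for Dctn3 under median scaling (-0.026) and Shcbp1 with array weights (-0.063). With 1 array left out they spanned -0.066 to 0.088 for Dctn3, -0.23 to 0.24 for Shcbp1, -0.011 to 0.26 for Adam10, -0.013 to 0.24 for Adam17, -0.18 to 0.049 for Arl2bp, -0.0034 to 0.20 for Arnt, -0.038 to 0.30 for Hnrnpf, -0.18 to 0.065 for Hmgb1 and -0.060 to 0.18 for Mcam. The cause of these shifts was not tested. Without detection p-values, signal over background limits what can be said of Ccl17, and saturation near the end of the scale was not tested for Cxcl12.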
